A study of Caenorhabditis elegans with 2 samples.

Results

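The 6 genes described here encode subunits of the mitochondrial 2-oxoacid dehydrogenase complexes that use the DLD-1 protein. They are dld-1, dlat-1, pdha-1, pdhb-1, ogdh-1 and dlst-1, and they are 6 of the 19973 protein-coding genes annotated on the main chromosomes of Caenorhabditis elegans. They were selected by name with earlier results of these data known, among them the rank of the peak at dld-1. The ranks by the authors' signal value, the distances to annotated starts and the overlap of the replicates are therefore given as a description, with no test. A gene was given an entry of a list when the entry's summit lay within 5000 bp of one of its annotated starts.

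The data were chromatin immunoprecipitation sequencing (ChIP-seq) of ZAG-1, a zinc-finger and homeodomain transcription factor known for its part in neuron differentiation, fused to enhanced GFP. The 2 biological replicates formed 1 group. Both were whole L1 larvae, the first larval stage, of mixed sex from strain OP83. All animals carried the unc-119(ed3) allele on chromosome III and the transgene wgIs83, which supplies the tagged ZAG-1. The authors used a control alignment in making the lists, but control values were not analysed here, so no value below has a background measured the same way. The labels name zag-1 as the antibody target, and the sources used here do not name the promoter or the cells in which the transgene is active. In whole animals, binding in fewer cells and weaker binding per cell cannot be told apart.

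The pyruvate dehydrogenase complex turns pyruvate from glycolysis into acetyl-CoA, and the oxoglutarate dehydrogenase complex catalyses a later step of the citric acid cycle. In each complex a decarboxylase passes its product to a lipoyl group on a transacylase core, and dihydrolipoyl dehydrogenase then reoxidises that lipoyl group with NAD. The last enzyme, encoded by dld-1, is shared by both complexes, and also by the branched-chain 2-oxoacid dehydrogenase and the glycine cleavage system. These roles are known chiefly from yeast and mammals.

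The regions that carried the results are shown first, as 201 bases centred on the summit of an entry, read 5′ to 3′ on the plus strand from the RefSeq sequence of WBcel235 (ce11). The dld-1 window, chrIV:14464169-14464369, and the pdha-1 window, chrII:8062306-8062506, are the only members' windows from the authors' optimal peak list. The dlat-1 window, chrV:14448229-14448429, is the strongest pooled entry of the member that ranked next. The window of pdhk-2, chrIII:8741551-8741751, belongs to a kinase that regulates pyruvate dehydrogenase, and was added after its value was seen. Capitals mark AGAGAC in dld-1 and, on the minus strand and so written GTCTCT, in dlat-1, and they mark GAGAGA on the minus strand, written TCTCTC, in pdha-1.
dld-1: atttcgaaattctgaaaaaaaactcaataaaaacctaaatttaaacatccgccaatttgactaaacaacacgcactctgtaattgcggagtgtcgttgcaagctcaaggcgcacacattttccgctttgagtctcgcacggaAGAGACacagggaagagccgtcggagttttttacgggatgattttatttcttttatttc
pdha-1: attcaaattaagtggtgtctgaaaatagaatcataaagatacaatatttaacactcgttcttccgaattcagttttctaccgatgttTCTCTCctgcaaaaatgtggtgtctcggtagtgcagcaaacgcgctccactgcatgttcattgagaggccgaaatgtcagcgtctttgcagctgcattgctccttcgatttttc
dlat-1: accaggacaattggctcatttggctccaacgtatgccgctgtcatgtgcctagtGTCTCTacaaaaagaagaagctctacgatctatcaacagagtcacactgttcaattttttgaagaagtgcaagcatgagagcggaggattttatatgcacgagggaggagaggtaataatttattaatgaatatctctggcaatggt
pdhk-2: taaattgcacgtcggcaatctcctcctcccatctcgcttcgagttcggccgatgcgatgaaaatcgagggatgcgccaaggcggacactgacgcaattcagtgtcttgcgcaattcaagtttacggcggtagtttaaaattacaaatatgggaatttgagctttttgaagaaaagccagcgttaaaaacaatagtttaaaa

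Among the 6 genes, dld-1 stood beside a peak near the top of the list, pdha-1 had a distant peak near its end, and the other 4 had pooled entries only. The optimal list held 478 peaks, which were the 478 strongest of the 30000 entries of the pooled list. Of the 6 genes, 2 had an optimal peak within 5000 bp of a start, against 5.50% of all protein-coding genes. Within 500 bp of a start the count was 1 of 6, against 1.58% of all. Counted by the single nearest start, it was also 1 of 6, against 2.18%. In each of the last comparisons the gene was dld-1. A pooled entry lay within 5000 bp of a start of 6 of 6 genes, which was also true of 91.0% of all protein-coding genes. Within 500 bp it was 2 of 6, dld-1 and ogdh-1, against 35.3%. A pooled entry was thus common among genes. The members' strongest pooled entries had a median signal of 12.5 and a median rank of 7899.5, and those of all genes with an entry 13.1 and 6654.0.

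**Figure D1:**
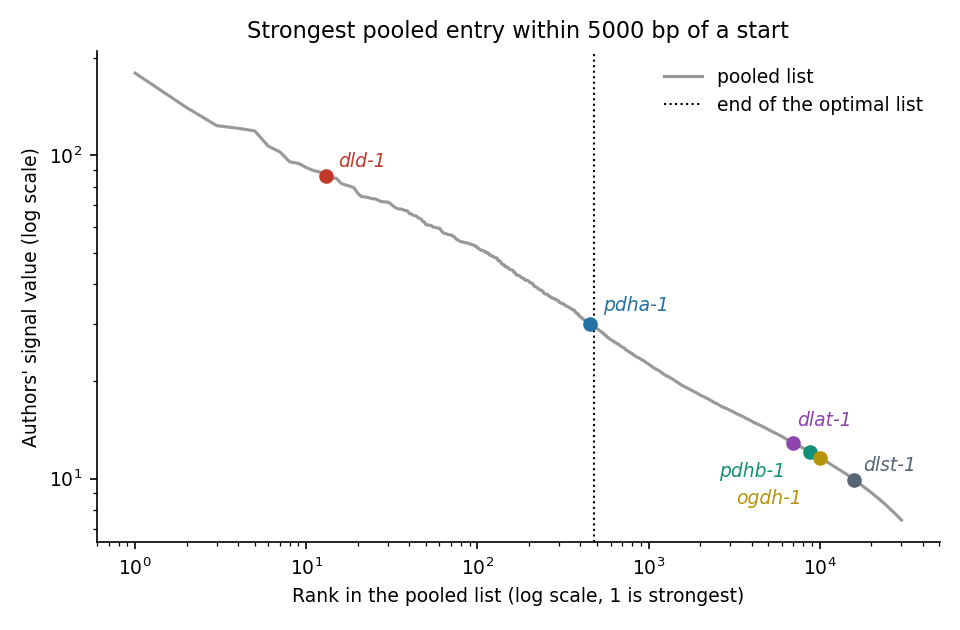
Signal of every pooled entry (grey line) against its rank, both on log scales, with the strongest entry within 5000 bp of a start of each of the 6 genes (points) and the end of the optimal list (dotted line at rank 478). The dld-1 entry sits at rank 13 and the pdha-1 entry at rank 457, and the other 4 lie between ranks 6991 and 15952.

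The shared dehydrogenase gene dld-1 (WBGene00010794, chrIV:14464517-14469136, plus strand) has 2 annotated starts 1900 bp apart. Its optimal peak, chrIV:14464097-14464440, had its summit 248 bp upstream of the first start and a signal of 86.5, which ranked 13 in the optimal and pooled lists. In replicate 1 the overlapping entry had a signal of 24.9 and ranked 59, with its summit 246 bp upstream. In replicate 2 it had a signal of 59.2 and ranked 13, with its summit 256 bp upstream. Both replicates thus held a strong entry at the same place, and their summits were 10 bp apart. The lists differ in the range of their signals, which are therefore read against the median of their own list, which they exceeded 8.52 times in the pooled list, 5.18 times in replicate 1 and 7.93 times in replicate 2. The −log10 q of the peak was 2.58, which was the highest value in the pooled list and was shared by 189 entries, so the q-value does not order the strongest peaks.

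The dld-1 peak was alone in its strength within the window. The next pooled entry there had a signal of 16.4, rank 2877, and lay 4067 bp downstream of the second start, so the peak was 5.26 times as strong. The other pooled entries had signals of 7.81, 10.2 and 9.53. Just outside the window lay entries of 9.82, at 5197 bp upstream, and of 8.67, at 5490 bp downstream. By its strongest pooled entry dld-1 held place 45 among the protein-coding genes with one, with 0.242% of them placed above it.

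The peak began within the last bases of nspg-9, and its summit lay in the 418 bp between that gene and dld-1, in the exon of LLC1.120, which is an 83 bp non-coding RNA gene on the minus strand at chrIV:14464238-14464320. Of the optimal peaks, 40 of 478 (8.37%) had a summit inside an annotated ncRNA gene, compared with 461 of 30000 pooled entries (1.54%). The dld-1 neighbourhood also holds piRNA genes, which encode the small RNAs bound by Piwi proteins. The annotation places the starts of 27 of them within 5000 bp of a dld-1 start. For each other member the count was 0. No such count was made over all genes or over the same chromosome region. The piRNA genes are therefore not read as particular to dld-1. Transcription of these RNAs was not measured.

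The entries placed next to the dld-1 peak by signal were nearest to genes outside the set described here. Just above it were those nearest vps-51 (89.8, rank 11) and W02H3.3 (88.7, rank 12), and just below it those nearest rpl-15 (85.2, rank 14) and F01G4.6 (84.9, rank 15). The gene vps-51 encodes a subunit of a vesicle-tethering complex and rpl-15 a protein of the large ribosomal subunit. The functions of W02H3.3 and F01G4.6 were not considered, so a link of either to mitochondrial metabolism was not tested. The summits of vps-51, rpl-15 and F01G4.6 lay 157 bp, 348 bp and 301 bp from the start, and that of W02H3.3 lay 4040 bp from it. These entries were chosen for their adjacent pooled ranks, and their replicate ranks are given as a description only. The replicate ranks were 114 and 7 for vps-51, 5 and 39 for W02H3.3, 10 and 32 for rpl-15, and 2 and 235 for F01G4.6, in replicates 1 and 2 in turn. Those of dld-1 were 59 and 13.

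The decarboxylase of pyruvate dehydrogenase has 2 subunits, and their genes differed in what they were given. The gene of the alpha subunit, pdha-1 (WBGene00011510, chrII:8066285-8068184, plus strand), had an optimal peak at chrII:8062234-8062577 with a signal of 30.1 and rank 457, close to the end of that list, whose lowest signal was 29.6. Its summit was 3879 bp upstream of pdha-1 but only 335 bp upstream of ufd-2 (chrII:8062741-8066193, plus strand). The ufd-2 gene encodes a ubiquitin chain assembly factor known to work with the ATPase CDC-48, and it ends 91 bp before pdha-1 begins. Replicate 1 had an entry of signal 8.41 and rank 2270 there, and replicate 2 one of 23.7 and rank 319. The replicates thus placed it far apart in rank, and their summits were 200 bp apart. Against the list medians the signal was 2.97 times in the pooled list, 1.75 times in replicate 1 and 3.18 times in replicate 2. The entry nearer to pdha-1 had a signal of 8.53, rank 22939, at 1387 bp upstream, inside a coding exon of ufd-2.

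The gene of the beta subunit, pdhb-1 (WBGene00015413, chrIV:3399672-3403908, plus strand), had 2 pooled entries and none in the optimal list. The stronger, with a signal of 12.1 and rank 8808, lay 3638 bp downstream of the start in an intron of pdhb-1 and overlapped no entry of either replicate. The other, of 9.37 and rank 18379, lay 591 bp upstream in an intron of dyf-3, which starts 440 bp away on the opposite strand. Its summit was nearest to an annotated start of dyf-3, at 42 bp. This weaker entry overlapped an entry of replicate 1 with a signal of 7.43 and rank 3813. Replicate 2 listed no entry within 5000 bp of pdhb-1 among its 30000.

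For the decarboxylase of the oxoglutarate complex, ogdh-1 (WBGene00020679, chrIV:4696979-4704011, minus strand, 2 starts 2134 bp apart), the 2 strongest of 4 pooled entries flanked a start. One, of signal 11.6 and rank 9986, lay 697 bp upstream and overlapped an entry of replicate 2 with a signal of 9.96 and rank 6384. The other, of 11.4 and rank 10594, lay 399 bp downstream and overlapped an entry of replicate 1 with a signal of 7.97 and rank 2873. Each replicate thus matched a different one of the pair. The other pooled entries had signals of 10.1 and 8.61, the weaker in a coding exon of the upstream gene cif-1.

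The transacylase cores carry the lipoyl groups that DLD-1 reoxidises. The gene of the pyruvate dehydrogenase core, dlat-1 (WBGene00009082, chrV:14445323-14447290, minus strand), had its strongest pooled entry, of 12.9 and rank 6991, at 1039 bp upstream. That summit was in a coding exon of fntb-1, which starts 360 bp away on the opposite strand, and was 589 bp from the fntb-1 start. Entries of both replicates overlapped it, with a signal of 4.44 and rank 18160 in replicate 1 and of 8.28 and rank 11342 in replicate 2. Both fell far below the strongest entries of their lists, and the strongest within the window lay elsewhere in each, at 387 bp upstream in replicate 1 (6.62, rank 5834) and 4287 bp upstream in replicate 2 (11.7, rank 3597). That of replicate 1 was nearest to fntb-1, 26 bp from its start. That of replicate 2 was nearest to F23B12.7, in an intron of that gene.

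The gene of the oxoglutarate dehydrogenase core, dlst-1 (WBGene00020950, chrV:6707056-6709101, minus strand), had 1 pooled entry, the weakest of the members' strongest entries. Its signal of 9.92, rank 15952, was 0.978 times the pooled median, and it lay 3385 bp downstream of the start in an intron of W02F12.4. An entry of replicate 1 with a signal of 7.81 and rank 3087 overlapped it, and replicate 2 listed no entry in the window. Replicate 1 also had entries of 4.52 at 74 bp upstream and 6.72 at 1496 bp upstream, with no pooled entry reported at either place. The entry of 4.52 lay in the exon of the ncRNA gene W02F12.11 and was below the replicate 1 median of 4.81. The entry of 6.72 was nearest to sna-1, 82 bp from its start.

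**Figure D2:**
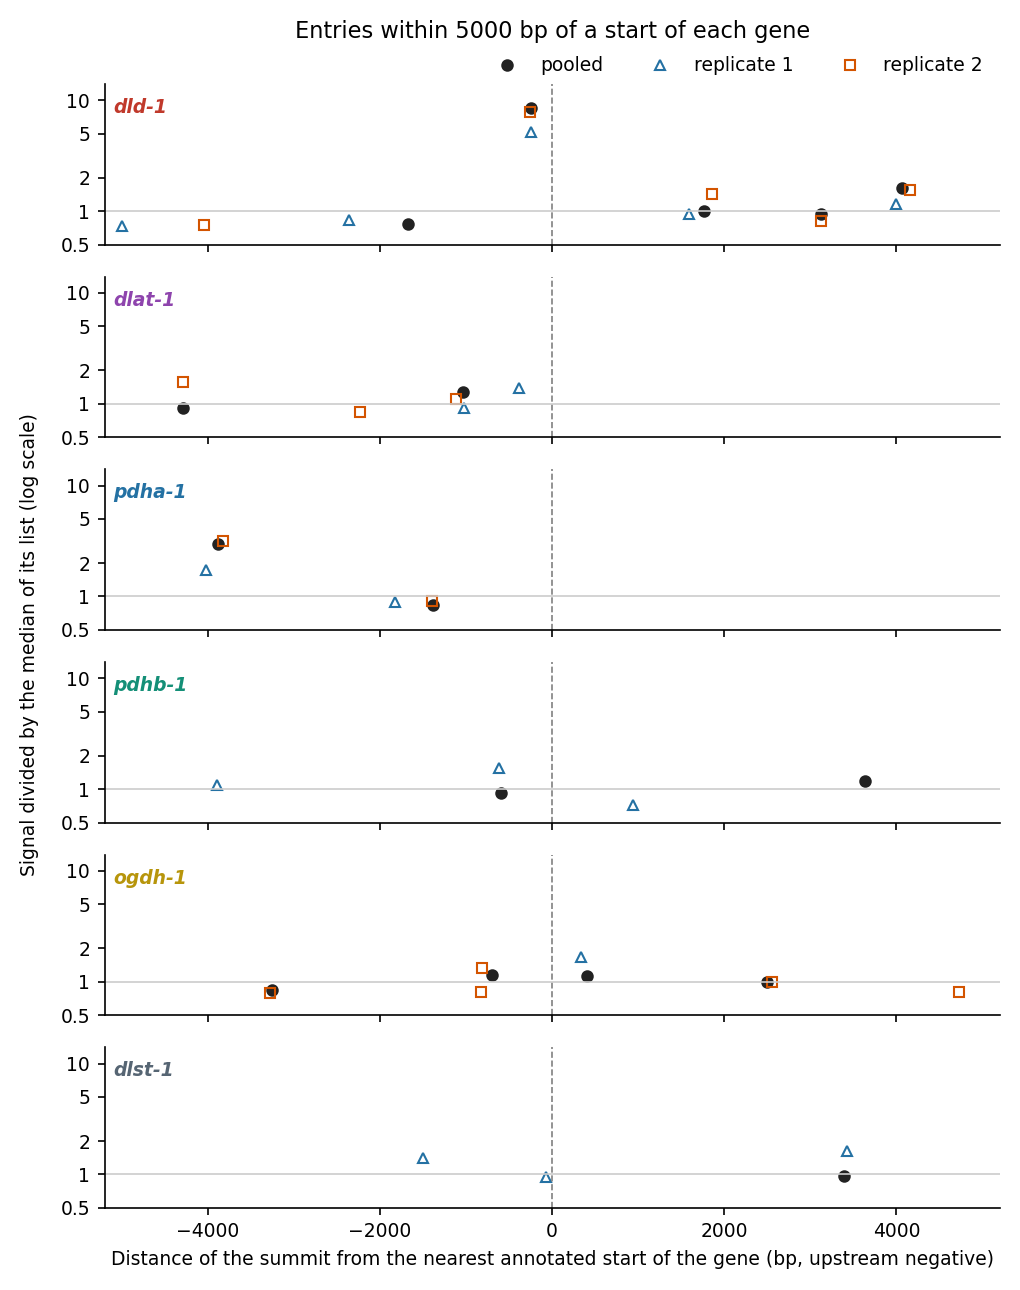
Signal divided by the median of its list (log scale) against the signed distance in bp from the nearest start of each gene, for all entries within 5000 bp in the pooled list and both replicates; negative distances are upstream. The dld-1 entries at 246 to 256 bp upstream rise above all others drawn, at 5.18 to 8.52 times the median.

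Support from the replicates varied among the members. The strongest pooled entry overlapped entries of both replicates, by at least 1 bp, for 3 of 6 members (dld-1, pdha-1 and dlat-1), against 48.0% of the protein-coding genes with a pooled entry. Over the 16 pooled entries in the members' windows, 5 overlapped entries of both replicates, 9 overlapped entries of 1 replicate and 2 overlapped none. Replicate 1 listed an entry within 500 bp of a start of 4 of 6 members (35.7% of all genes) and replicate 2 of 1 of 6 (34.3% of all). The member in replicate 2 was dld-1. With 2 replicates and 1 group, the spread between replicates can be given only as these paired ranks.

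**Figure D3:**
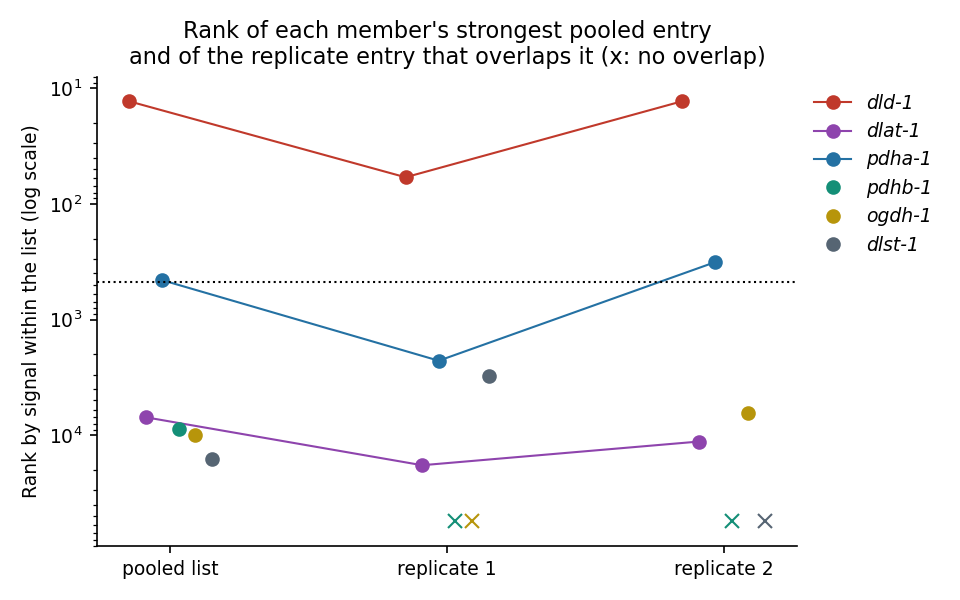
Rank (log scale, 1 is strongest) of the strongest pooled entry within 5000 bp of a start of each gene, and of the entry overlapping it in replicates 1 and 2. A cross marks a replicate with no overlapping entry and is not a rank. Such a replicate can still list an entry elsewhere in the window, as replicate 1 does for ogdh-1 at rank 2873. The replicate points of dlat-1, at 18160 and 11342, are likewise not its strongest replicate entries, which ranked 5834 and 3597. The dld-1 points lie at ranks 13, 59 and 13, and the pdha-1 points at 457, 2270 and 319.

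Lists of 61 genes of the surrounding metabolism, also chosen with earlier results known, held 8 with an optimal peak within 5000 bp (13.1% of them, against 5.50% of all genes). Of the 61, 3 had it within 500 bp (pdhk-2, aco-2 and idhb-1), against 1.58% of all genes. The peak was nearest to the start of 2 of the 61 (pdhk-2 and idhb-1), against 2.18% of all genes. When either replicate's 478 strongest entries stood in for the optimal list, 4 of the 8 had an entry in both (pdhk-2, idh-1, ipgm-1 and mpc-2), and 3 had one in neither (aco-2, idhb-1 and lpl-1). Of the 3 genes with a peak within 500 bp, pdhk-2 alone thus had one in both. The median strongest pooled signal over the 59 genes with one was 17.5, against 13.1 over all genes.

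Among 14 genes for related dehydrogenases, lipoate and regulators, 2 had an optimal peak (14.3%, against 5.50% of all genes). The median signal was 16.9. The strongest was at pdhk-2 (chrIII:8737686-8741412, minus strand), whose product is the kinase that phosphorylates and inhibits pyruvate dehydrogenase. Its peak had a signal of 53.7, rank 85, at 239 bp upstream, with ranks of 50 and 273 in replicates 1 and 2. The peak given to lpl-1, a lipoate-protein ligase gene, had a signal of 29.7 and rank 473 and was nearest to msa-1. An entry of 29.6 and rank 482, just outside the optimal list, was given to gcsh-2, a glycine cleavage system gene, and was nearest to glb-18. Below it came dbt-1, the core of the branched-chain complex (21.7), pdp-1, the pyruvate dehydrogenase phosphatase (20.7, nearest to ZK973.8), and lias-1, the lipoic acid synthase (18.3). For the glycine cleavage genes gldc-1 and gcst-1 the pooled list used here held no entry in the window, although both replicates listed entries there, at best ranks of 367 and 813 for gldc-1 and of 2594 and 5525 for gcst-1. Whether the pooled list is complete at these genes is not known, so a missing pooled entry is not read as a lack of signal.

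Among 21 genes listed under the citric acid cycle, 3 had an optimal peak (14.3%, against 5.50% of all genes). The median signal was 16.2. Listed genes were matched by symbol, and mitochondrial and cytosolic forms of an enzyme were not told apart. The isocitrate dehydrogenase gene idh-1 had a signal of 42.2 at rank 178, but its peak lay 3513 bp upstream and nearest to F38E11.9. The peak of idhb-1, a subunit of the NAD-dependent isocitrate dehydrogenase, had a signal of 30.0 at rank 462 and lay 54 bp downstream of the start. The aconitase gene aco-2 had a signal of 29.8 at rank 471, with the peak 345 bp upstream and nearer to the elongation factor gene eef-1B.1. Both of the last stood as close to the end of the optimal list as pdha-1. Next came the succinate dehydrogenase subunit gene sdha-1 (25.4), the succinyl-CoA synthetase gene suca-1 (24.0), mev-1, another succinate dehydrogenase subunit (23.9, nearest to jmjd-4), and the malate dehydrogenase gene mdh-2 (21.8).

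Among 26 genes of glycolysis and pyruvate handling, 3 had an optimal peak (11.5%, against 5.50% of all genes). The median signal was 17.8. Within 500 bp the count was 0 of 26, against 1.58% of all genes. At so low a share a count of 0 among 26 genes is not informative. The peak of mpc-2, a subunit of the mitochondrial pyruvate carrier, had a signal of 68.2 and rank 36 but was nearest to unc-108, 2802 bp from mpc-2. The phosphoenolpyruvate carboxykinase gene pck-2 had 42.5 at rank 173, nearest to R11A5.3. The phosphoglycerate mutase gene ipgm-1 had 40.2 at rank 207, nearest to bag-1. All of these peaks were thus nearer to another gene's start. The pck-2 peak ranked 6478 in replicate 1 and 80 in replicate 2. The pyruvate kinase gene pyk-1 (28.8, nearest to eef-2), the hexokinase gene hxk-3 (26.8, nearest to npp-20), the glyceraldehyde-3-phosphate dehydrogenase gene gpd-2 (26.3, an entry it shares with gpd-3) and the aldolase gene aldo-2 (24.9, nearest to F01F1.3 and 4549 bp from aldo-2) followed.

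**Figure D4:**
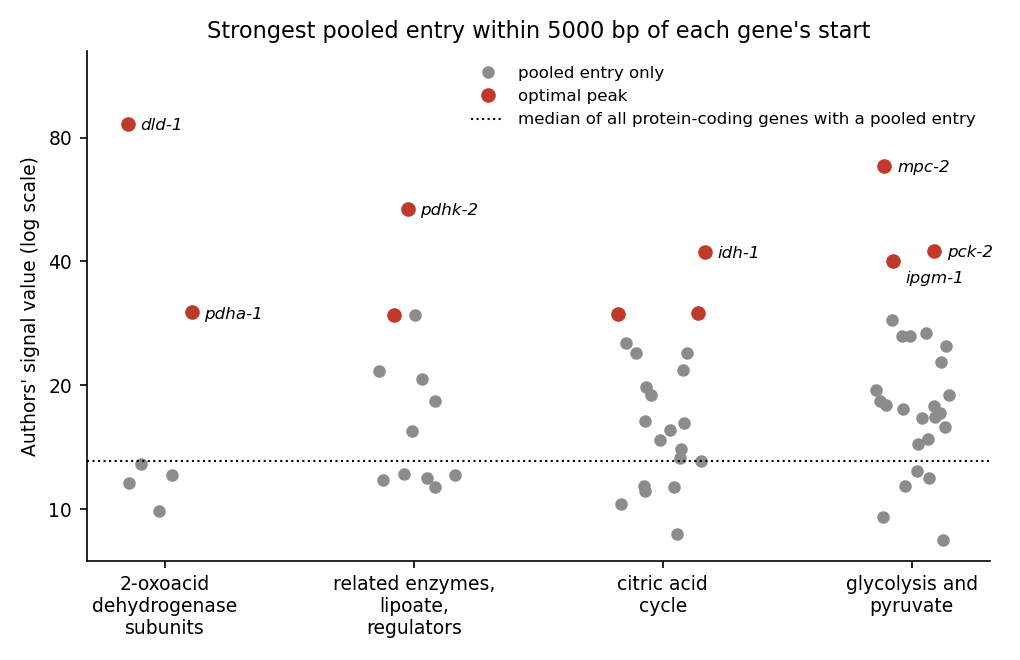
Signal (log scale) of the strongest pooled entry within 5000 bp of each gene's start, for the 6 members and 3 lists of related genes; red points have an optimal peak, and the dotted line is the median of all protein-coding genes with a pooled entry. The dld-1 point, at 86.5, is above the points of mpc-2 at 68.2 and pdhk-2 at 53.7.

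The summit windows were searched on both strands for short motifs. ZEB-type zinc-finger factors are known to bind E-box sequences, and neither CAGGTA nor CAGGTG occurred in the 201-base summit windows of the 6 members. Both were rarer in optimal windows (1.67% and 1.88% of 478) than in pooled windows (4.23% and 3.91% of 30000). The other 3 motifs were commoner in optimal than in pooled windows. Of these, GAGAGA and CGTCTC were chosen because earlier results of these data had shown them to be frequent at optimal peaks. Their excess there was set by that choice and is no independent result. GAGAGA occurred in 49.4% and 12.9%, CGTCTC in 36.4% and 6.24%, and AGAGAC in 37.4% and 8.14%. Of these the dld-1 window held only AGAGAC, 42 bp from the summit, and the pdha-1 window only GAGAGA, 8 bp from it. The pdhk-2 window held none of the 5. AGAGAC, which was added after the windows had been seen, can overlap both GAGAGA and GAGACG, the reverse complement of CGTCTC. Base composition differed too, since the median GC content was 43.3% in optimal and 32.3% in pooled windows. The dld-1 window had 39.8%, and 322 of the 478 optimal windows (67.4%) had more.

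The annotated starts of the members shared a sequence feature, which was noticed after the sequences had been seen. The 30 bases below run 5′ to 3′ on the strand of each gene, with 20 before the outermost annotated start and 10 from it, and CAG just before the start is in capitals. They lie at chrIV:14464497-14464526 for dld-1, chrV:14447281-14447310 for dlat-1, chrII:8066265-8066294 for pdha-1, chrIV:3399652-3399681 for pdhb-1, chrIV:4704002-4704031 for ogdh-1 and chrV:6709092-6709121 for dlst-1. In C. elegans many messages are trans-spliced, and their annotated start is then a splice acceptor that ends in CAG and not the place where transcription begins.
dld-1: ctaattcgatttattttCAGgtaatatgtc
dlat-1: ttaaactgaaaaatattCAGgtaatgtcga
pdha-1: tcttcacatattctgattttagccttgaac
pdhb-1: attaatttccggtttttCAGgtaatccccg
ogdh-1: ttattttcttgtttcttCAGtaacccggga
dlst-1: attaatacgctatttttCAGggtaaccgaa

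CAG stood just before the start in 5 of 6 members, all but pdha-1, and in 4409 of 19973 protein-coding genes (22.1%). CAGGTA ran across the start in dld-1, dlat-1 and pdhb-1, 3 of 6, and in 235 of 19973 genes (1.18%). Of the 1483 promoters of 300 bases that held CAGGTA, those genes were 15.8%. Where the annotated start is a splice acceptor, the distances above are measured from it.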

How the data were processed

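ChIP-seq peak lists of 2 biological replicates were used. The authors deposited an optimal list of 478 peaks, a pooled list and a list per replicate of 30000 entries each, on ce11. The lists were derived from alignments of each replicate or of both together, each with a control alignment, per the deposited release notes, which name no peak caller, filter or formula for the signal. The deposited signal value and the deposited −log10 q of each entry were used as they stand. Read depth is unknown. Lists on ce10 were not used, and signals were compared only within a list. Annotation was Ensembl release 115 (WBcel235) and sequence the RefSeq assembly.

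Summits were assigned to annotated starts of protein-coding transcripts within 5000 bp. Entries overlapped when they shared at least 1 bp. The members, gene lists and rules were chosen with earlier results of these data known, so no p-value is given. Genes named were the members, genes nearest a named entry, listed genes with an optimal peak and up to 4 others of highest pooled signal in each list, and the 2 entries on each side of dld-1. Of the terms in the lists, 4 matched no annotated symbol (bckdk-1, lipt-2, pdhx-1 and dhtk-1). Assignment was tested on simulated data. Python 3.11.15, pandas 2.3.3, numpy 2.4.6 and matplotlib 3.10.9 were used.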

Additional observations from a re-analysis of the deposited data

How the results depend on the processing

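The count of members with an optimal peak, 2 at 5000 bp, was 1 at 500, 1000 or 2000 bp, 1 by the nearest start, 1 in the 239 strongest optimal peaks, and 1 to 2 when either replicate was left out (1 without replicate 2). In each case of 1 the gene was dld-1. The count of metabolic genes with one, 8, was 3, 3 and 4 at 500, 1000 and 2000 bp, 2 by the nearest start, 5 in the 239 strongest, and 7 to 8 when either replicate was left out, but with other genes among them: aco-2, idhb-1 and lpl-1 were lost in both cases and pck-2 without replicate 2. Over all protein-coding genes, 1098 became 315, 433, 617 and 1878 at 500, 1000, 2000 and 10000 bp, 435 by the nearest start and 595 in the 239 strongest. Members with a pooled entry fell from 6 to 2 at 500 bp and 3 at 1000 bp. Members whose strongest entry overlapped both replicates fell from 3 to 1 (dld-1) when replicate entries had to rank within 478. For the 4 members with entries in both replicates, 20 of 28 ranks under alternatives moved by less than the spread between replicates and 8 by more. The 28 include the ranks with a replicate left out, which also define that spread. For dlat-1 and ogdh-1 the spread is between entries at different places. The count of 20 is therefore no measure of stability. For pdhb-1 and dlst-1 a spread between replicates does not exist, and their 10 ranks were not judged. Fewer peaks or shorter windows lower the counts of genes by construction.

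No paired analysis was possible because all samples form 1 group. Values rest on 2 replicates with unknown depth and no control values analysed here. The pooled and replicate lists hold 30000 entries each, so a gene without an entry has an unknown signal. Annotated starts stand in for transcription starts.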

Other observations

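For gldc-1, which encodes the glycine cleavage enzyme that works with dihydrolipoyl dehydrogenase through a lipoyl carrier, both replicates listed an entry that the pooled list lacks. Replicate 1 had a signal of 13.2 and rank 367 at 2528 bp upstream, and replicate 2 had 17.6 and rank 813 at 2594 bp upstream, nearest to R12C12.6 in both. Among the 1000 strongest entries, 35 of replicate 1 and 4 of replicate 2 overlapped no pooled entry, and 2 of the 35 overlapped one of the 4. These values were looked up after the gldc-1 result had been seen.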
